A study of Mus musculus with 18 samples.

Results

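A set of 10 genes of actin and the contractile apparatus was followed in mouse dermal fibroblasts after induction of macroH2A2, a variant of histone H2A that carries a macro domain. The genes were chosen by name, with earlier results of these data known. They are Acta1, Acta2, Actg2, Tagln, Tagln2, Cnn1, Cnn2, Myl9, Tpm1 and Tpm2. These are 10 of 48440 genes in the count files and 10 of 21631 protein-coding genes whose bodies were compared with chromatin regions. All 10 were counted in every RNA library and all 10 passed the filter on low counts. By 6h of induction the RNA of all 10 was called changed, with 9 genes higher and Cnn2 lower. By 24h 9 of the 10 no longer passed the test against 0h. Regions called for macroH2A2 left most of these gene bodies free in every library, as they did those of most genes at 24h, with Acta1 as the main exception. Each condition had 1 library. With regions scored below their library's median left out, coverage of Acta1 at 24h was 1.42% or less with and without inhibitor.

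The RNA groups were 0h (no treatment), 6h and 24h of 0.5 ug/ml doxycycline, with 3 libraries each. All came from 1 line of SV40-immortalized neonatal dermal fibroblasts of male 129/S6 background at passages 20 to 30, lacking macroH2A1 and macroH2A2 and carrying a doxycycline-inducible macroH2A2-GFP transgene. Native ChIP with GFP-trap beads used the same line, with 1 library for each of 7 conditions: 24h of doxycycline with 0.5 uM flavopiridol, an inhibitor of CDK9, in the last 18 hours; 6h and 24h of doxycycline after 10 days of 5 uM GSK126, an inhibitor of Ezh2; and 0h, 6h, 24h and 5 days of doxycycline without inhibitor. One more library held H2A.Z, another H2A variant, in untreated wild-type primary dermal fibroblasts of newborn females. Every 6h and 24h RNA library received both the drug and the transgene product, so the effects of doxycycline and of macroH2A2 cannot be told apart here. The design names the RNA libraries biological triplicates without saying what separates them, so the p-values cover the spread between these libraries only.

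Actin filaments, run along by bundles of myosin II, give cells their tension. Tropomyosins lie along the filament, calponins and transgelins bind it from the side, and phosphorylation of the myosin regulatory light chain switches the motor on. Cultured dermal fibroblasts carry part of the smooth muscle set of these proteins, most visibly when they turn into myofibroblasts, and many of the genes are driven by serum response factor (SRF), which binds CArG boxes in their promoters and is helped by MRTF cofactors that are held back by unpolymerized actin.

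RefSeq promoter sequences (GRCm38.p6) were matched for 8 of the 10 genes; Actg2 and Tagln were not matched. A CArG box lay within the 250 bases before the start of 3 of the 8, against 244 of 17274 promoters of the whole table (1.41%). Acta2 and Tpm1 are counted without a box, but the starts used for them lie inside the annotated gene bodies. The window searched for Tpm1 lay wholly, and that for Acta2 mostly, inside the body, so sequence upstream of these bodies was hardly searched. The boxes found are shown because SRF is the best known regulator of this gene family. The capitals mark the box and 20 bases are given on either side.
Acta1 (minus strand, chr8:123894819-123894868): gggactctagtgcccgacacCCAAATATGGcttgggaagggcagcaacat
Cnn2 (plus strand, chr10:79988524-79988573): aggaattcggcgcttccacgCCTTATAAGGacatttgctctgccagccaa
Myl9 (plus strand, chr2:156775283-156775332): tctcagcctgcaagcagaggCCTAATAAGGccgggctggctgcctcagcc
The box sat 73 to 64 bases before the start in Acta1, 56 to 47 in Cnn2 and 161 to 152 in Myl9, and Cnn2, which holds one, was the gene whose RNA was lower at 6h. Whether SRF acts through these boxes here was not tested.

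The letters CATTCC, the core of the MCAT element bound by TEAD factors, were searched on both strands of the same window. They were found in 4 of the 8 promoters, those of Acta1, Acta2, Tagln2 and Tpm1, against 11.5% of all promoters. Tagln2 held the letters at 2 places, of which the one nearer the start is printed. The capitals mark CATTCC, or GGAATG where it lies on the other strand. For Acta2 and Tpm1 the start used here lies inside the annotated gene body, and so do the stretches printed.
Acta1 (minus strand, chr8:123894796-123894841): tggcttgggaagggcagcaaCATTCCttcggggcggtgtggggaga
Acta2 (minus strand, chr19:34255494-34255539): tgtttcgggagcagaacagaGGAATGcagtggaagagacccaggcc
Tagln2 (plus strand, chr1:172500146-172500191): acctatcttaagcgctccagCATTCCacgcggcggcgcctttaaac
Tpm1 (minus strand, chr9:67049244-67049289): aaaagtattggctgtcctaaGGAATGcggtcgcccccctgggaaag
TATAAA, read on the strand of the gene, was found in the window of Acta1 alone among the 8, against 8.43% of all promoters. The window of Acta1 thus held all 3 motifs, and its CArG box and CATTCC do not overlap. A match is a stretch of letters, and the letters' absence from a window says nothing about the factor.

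Libraries held 29338093 to 37793178 counts over genes, of which the strand of the gene took 96.6 to 96.9%. H2afy2, the gene of macroH2A2, checks the labels: it had 10.5, 25.3 and 9.61 CPM (counts scaled to a common library size) in the 0h libraries, 823, 833 and 805 at 6h and 1741, 1713 and 1727 at 24h. Of 13785 genes tested with edgeR, 39.0% were called at 6h against 0h (adjusted p under 0.05), 7.04% at 24h against 0h and 36.1% at 24h against 6h. The median log2 change of all genes lay within 0.01 of 0 in each comparison. Levels are CPM scaled by TMM, without transcript length, so they are compared between libraries and not between genes. In bulk RNA, fewer cells expressing a gene and less RNA per cell cannot be told apart.

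At 6h all 10 genes were called, with 9 higher and 1 lower, where 20.8% of all tested genes were called higher and 18.2% lower. Their median log2 change was 0.48, against 0.0067 for all genes. The 10 were chosen with earlier results of these data known, and how far that choice shaped these shares was not tested. Of the 10, Acta1, Tagln and Actg2 (3 genes) were up by 1.5-fold or more, as were 1.46% of all tested genes. In each of the 10 genes the 6h libraries lay outside the range of the 0h libraries. The share of all tested genes for which this holds was not counted. The summed level of the 10 was 5090 CPM at 6h (5043 to 5151 in the 3 libraries), against 3955 CPM at 0h (3917 to 4019).

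**Figure D1:**
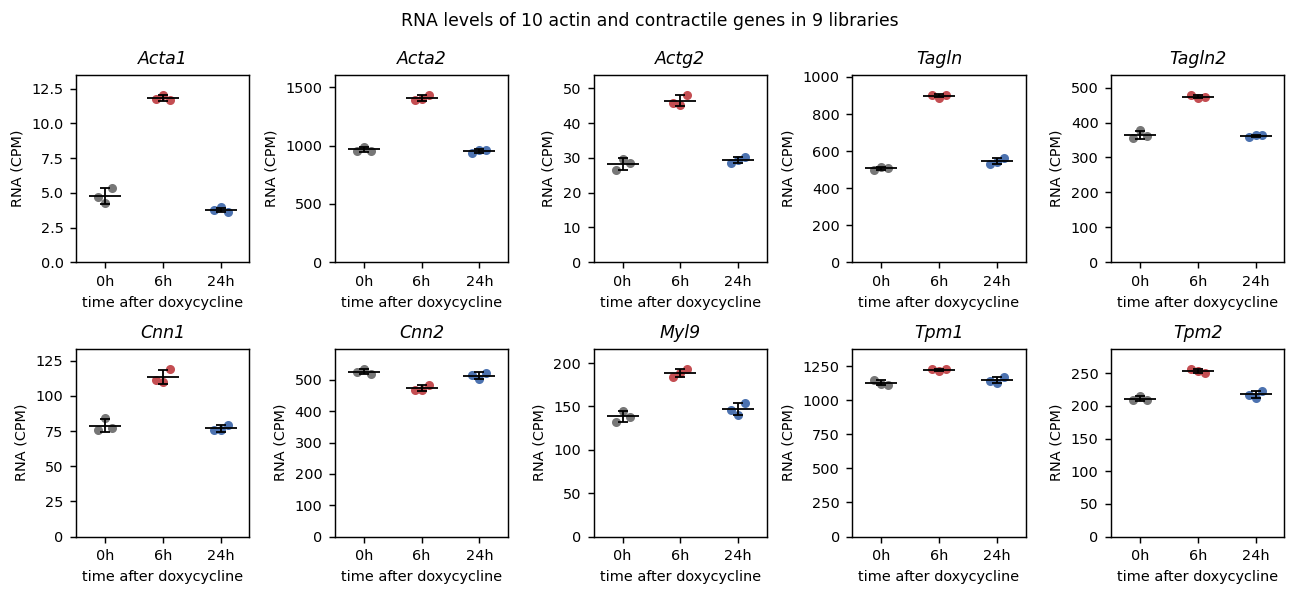
RNA level in CPM (vertical axes, each from 0) of the 10 genes by time after doxycycline (horizontal axes); points are the 3 libraries of each time and bars are the mean and SD. The 6h points stand above those of 0h and 24h in 9 genes and below them in Cnn2, and the 24h points lie near or among those of 0h.

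The muscle actins rose at 6h. Acta1 (ENSMUSG00000031972, chromosome 8, 123891758 to 123894775, RefSeq GRCm38.p6) encodes the alpha-actin of skeletal muscle. It had 4.70, 4.24 and 5.36 CPM in the 0h libraries, 11.7, 12.1 and 11.7 at 6h and 3.73, 3.95 and 3.65 at 24h. The 6h libraries stood far above the rest and the 24h libraries were all below those of 0h. Its mean was 11.8 ± 0.223 CPM at 6h, against 4.77 ± 0.562 at 0h (SD, n = 3 each), a log2 change of 1.31 (SE 0.090, adjusted p = 2.6e-12, edgeR). These levels rest on 348 to 437 reads per library at 6h and 140 to 180 at 0h, the fewest of the 10 genes.

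Acta2 (ENSMUSG00000035783, chromosome 19, 34240336 to 34255585) encodes the alpha-actin of smooth muscle, the usual marker of myofibroblasts. It had 956, 990 and 955 CPM at 0h, 1391, 1397 and 1436 at 6h and 935, 958 and 963 at 24h. The 0h and 24h libraries overlapped and the 6h libraries stood apart. The mean was 1408 ± 24.4 CPM at 6h, against 967 ± 19.9 at 0h, a log2 change of 0.54 (SE 0.024, adjusted p = 1.6e-16). Actg2 (ENSMUSG00000059430, chromosome 6, 83512909 to 83536251), the gamma-actin of gut smooth muscle, had 26.5, 29.8 and 28.6 CPM at 0h, 46.0, 45.2 and 48.2 at 6h and 28.5, 29.4 and 30.2 at 24h. It was 1.64-fold higher at 6h than at 0h (log2 0.71, SE 0.045, adjusted p = 4.8e-13). Coding sequences of actins are near copies of each other, so reads of 80 bases may have been assigned to the wrong actin or lost; how much was not tested.

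The cytoplasmic actins of non-muscle cells did not pass the test. Actb, beta-actin, averaged 6301 ± 78.3 CPM at 6h and 6084 ± 127 at 0h (log2 0.050, adjusted p = 0.0828), and passed without 0h replicate 1 (log2 0.067, adjusted p = 0.0257) or without 24h replicate 3 (0.051, 0.0330). Actg1, gamma-actin, averaged 521 ± 3.10 CPM at 6h and 508 ± 22.5 at 0h (log2 0.036, adjusted p = 0.303). Actc1, the cardiac actin, was too low to test, with 0.0213 CPM at 6h and 0.0688 at 0h. The rise of the 3 muscle actins therefore stood beside values near 0 on the log2 scale for the 2 actins of non-muscle cells.

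Among the side-binding proteins, Tagln changed most. Tagln (ENSMUSG00000032085, chromosome 9, 45929628 to 45936058) encodes transgelin, also called SM22-alpha, an early marker of smooth muscle. It had 495, 515 and 509 CPM at 0h, 903, 888 and 904 at 6h and 532, 540 and 564 at 24h. The 3 times did not overlap, with 24h just above 0h and 6h well above both. The mean was 898 ± 9.08 CPM at 6h, against 506 ± 10.2 at 0h, a log2 change of 0.83 (SE 0.025, adjusted p = 2.4e-20). Its gene overlaps that of Pcsk7 by 2480 bases, but only 743 reads lay on the opposite strand of Tagln over all libraries, beside 195826 on its own.

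Tagln2 (ENSMUSG00000026547, chromosome 1, 172500246 to 172507375), the transgelin of most non-muscle cells, had 356, 378 and 362 CPM at 0h, 480, 469 and 474 at 6h and 359, 364 and 364 at 24h. It rose by 0.38 at 6h against 0h (SE 0.025, adjusted p = 1.2e-12), less than its muscle relative. Cnn1 (ENSMUSG00000001349, chromosome 9, 22099221 to 22109221), the calponin of differentiated smooth muscle, had 75.6, 84.3 and 76.9 CPM at 0h, 111, 110 and 119 at 6h and 75.6, 75.7 and 79.6 at 24h. Its log2 change at 6h was 0.52 (SE 0.037, adjusted p = 5.1e-12).

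Cnn2 (ENSMUSG00000004665, chromosome 10, 79988600 to 79995400), a calponin found in many non-muscle cells, went the other way. It had 525, 535 and 520 CPM at 0h, 467, 468 and 484 at 6h and 515, 503 and 524 at 24h. The 6h libraries were all below the others. The mean was 473 ± 9.49 CPM at 6h, against 527 ± 7.70 at 0h, a log2 change of -0.15 (SE 0.024, adjusted p = 7.8e-06). The interval of this change at 95% ran from -0.20 to -0.11, apart from that of Cnn1, which ran from 0.45 to 0.60.

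The genes of the motor and of the filament's strands were higher at 6h too. Myl9 (ENSMUSG00000067818, chromosome 2, 156775408 to 156781657), a regulatory light chain of smooth muscle and non-muscle myosin II, had 133, 145 and 138 CPM at 0h, 184, 188 and 193 at 6h and 146, 140 and 154 at 24h. It was 1.36-fold higher at 6h (log2 0.44, SE 0.033, adjusted p = 1.6e-11). Tpm2 (ENSMUSG00000028464, chromosome 4, 43513726 to 43523583), the gene of beta-tropomyosin, had 209, 216 and 210 CPM at 0h, 257, 253 and 251 at 6h and 218, 213 and 223 at 24h, a log2 change of 0.26 at 6h (SE 0.026, adjusted p = 3.5e-09). Tpm1 (ENSMUSG00000032366, chromosome 9, 67022590 to 67049672), the gene of alpha-tropomyosin, moved least of the 10. It had 1148, 1122 and 1112 CPM at 0h, 1227, 1211 and 1230 at 6h and 1139, 1129 and 1170 at 24h, a log2 change of 0.12 at 6h (SE 0.023, adjusted p = 1.6e-04). Both tropomyosin genes make muscle and non-muscle forms from alternative exons, and gene counts add these forms up.

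By 24h of doxycycline the levels had mostly come back to near those of 0h. Against 0h, 1 of the 10 was called higher and none lower, where 4.17% of all tested genes were called higher and 2.87% lower, and the median log2 change of the 10 was 0.0061. Tagln was the gene called: its mean was 545 ± 16.8 CPM at 24h, against 506 ± 10.2 at 0h (log2 0.11, SE 0.025, adjusted p = 0.00741). Without 0h replicate 1 it was not called (log2 0.090, adjusted p = 0.0517). Acta1 averaged 3.78 ± 0.155 CPM at 24h and 4.77 ± 0.562 at 0h, with a log2 change of -0.34 (interval -0.56 to -0.11) that missed the threshold (adjusted p = 0.0583). Without 0h replicate 2 it was called lower (log2 -0.41, adjusted p = 0.0390).

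The other 8 genes had log2 changes between -0.035 and 0.086 at 24h against 0h, with adjusted p from 0.139 for Myl9 to 0.868 for Tagln2. For Acta2 the interval ran from -0.072 to 0.026, for Tagln2 from -0.063 to 0.040 and for Tpm1 from -0.024 to 0.071, and in all 8 genes the change seen at 6h lay outside the interval at 24h. For Cnn2 it ran from -0.085 to 0.014 and for Actg2 from -0.047 to 0.15. In all 8 the libraries of the 2 times overlapped.

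Compared directly, the 24h and 6h libraries differed in all 10 genes. Of these, 9 were called lower at 24h than at 6h and Cnn2 was called higher, where 18.8% of all tested genes were called lower and 17.4% higher. The median log2 difference was -0.47. Acta1 was 3.78 ± 0.155 CPM at 24h, against 11.8 ± 0.223 at 6h (log2 -1.65, SE 0.094, adjusted p = 6.2e-14). Tagln was 545 ± 16.8 CPM at 24h, against 898 ± 9.08 at 6h (log2 -0.72, adjusted p = 8.2e-19), and Acta2 was 952 ± 14.4 CPM at 24h, against 1408 ± 24.4 at 6h (log2 -0.56, adjusted p = 5.1e-17). The smallest difference was that of Tpm1, at -0.093 (adjusted p = 0.00199). H2afy2 itself was higher at 24h than at 6h by 1.07 on the log2 scale, so these 9 genes were lower while the induced gene's RNA was higher.

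**Figure D2:**
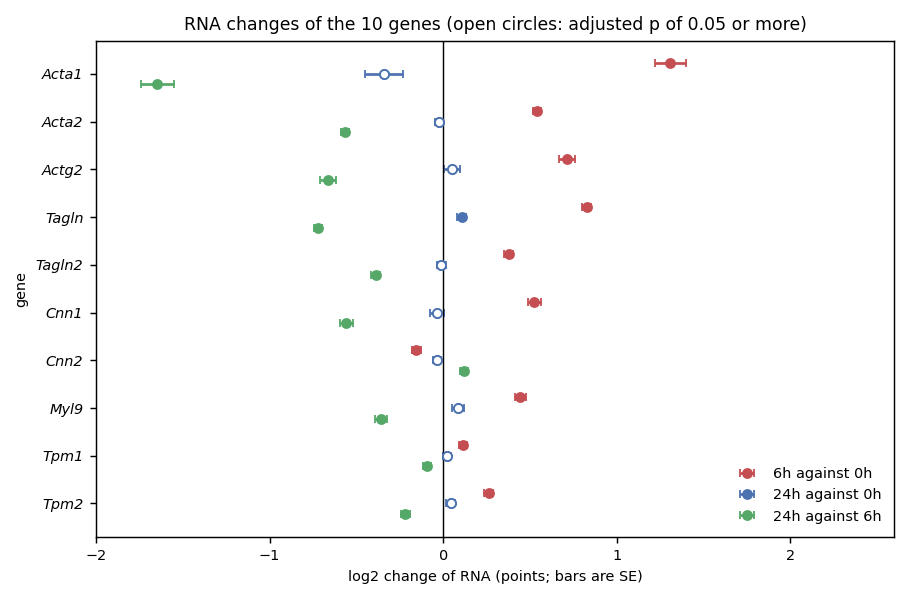
Log2 change of RNA (horizontal axis) of each gene at 6h against 0h (red), 24h against 0h (blue) and 24h against 6h (green); bars are SE, and open circles have an adjusted p of 0.05 or more. Red points lie right of 0 except for Cnn2, green points mirror them, and of the blue points only that of Tagln is filled; the 24h comparisons share libraries with the others.

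Genes whose course over the 9 libraries came nearest were sought among 8611 genes that code for proteins and averaged at least 10 CPM, by the root mean square distance of centred log2 CPM. For Tagln these were Nipal1, a magnesium transporter gene (distance 0.052), Fhl1, which encodes a muscle LIM protein (0.060), and Timp1, an inhibitor of matrix metalloproteinases (0.062). For Acta2 they were Akap12, a kinase scaffold gene (0.035), Plaur, the urokinase receptor gene (0.036), and Itgb1, the integrin beta-1 gene (0.037). Their own log2 changes at 6h against 0h were 0.78 for Nipal1, 0.70 for Fhl1, 0.96 for Timp1, 0.52 for Akap12, 0.55 for Plaur and 0.48 for Itgb1.

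Of 4 other tropomyosin, calponin and transgelin genes, 3 were called higher at 6h: Tpm4, with 1657 ± 6.62 CPM at 6h and 1447 ± 37.3 at 0h (log2 0.20, adjusted p = 1.1e-07), Tpm3 (log2 0.14, adjusted p = 6.9e-04) and Cnn3 (log2 0.069, adjusted p = 0.0254). The call of Cnn3 was lost without 0h replicate 1 (adjusted p = 0.128), 0h replicate 2 (0.0662), 6h replicate 1 (0.0756), 6h replicate 3 (0.106) or 24h replicate 2 (0.0515), and with no filter on low counts (0.0519). Tagln3, the transgelin of neurons, stood at 0.437 CPM at 6h and 0.423 at 0h. At 24h against 0h none of the 4 was called.

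Of 8 tested myosin II chain genes, 3 were called higher at 6h and 2 lower, with a median log2 change of -0.080. Myl6, an essential light chain, averaged 304 ± 7.63 CPM at 6h and 269 ± 2.02 at 0h (log2 0.18, adjusted p = 7.5e-06). Myl12a and Myl12b encode the regulatory light chains that non-muscle cells use beside Myl9, and they moved in opposite directions: Myl12a by 0.14 (adjusted p = 6.0e-05) and Myl12b by -0.30 (adjusted p = 3.4e-08). Of 13 tested genes that regulate myosin light chain phosphorylation, 2 were called higher and 4 lower. Rhoa, a small GTPase that promotes actomyosin contraction, averaged 560 ± 12.8 CPM at 6h and 623 ± 11.8 at 0h (log2 -0.15, adjusted p = 8.0e-06), and Rhob changed by -0.30 (adjusted p = 1.6e-09). Mylk2, the light chain kinase of skeletal muscle, stood at 1.86 ± 0.214 CPM at 6h and 0.735 ± 0.129 at 0h (log2 1.33, adjusted p = 1.4e-05). Across the alternatives 1 or 2 genes of that list were called higher and 2 to 4 lower, and 1 or 2 myosin chain genes were called lower.

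Of 12 tested smooth muscle contractile genes outside the 10, 5 were called higher at 6h and 1 lower, with a median log2 change of 0.15; none was called lower without 0h replicate 2, 0h replicate 3, 6h replicate 1 or 6h replicate 3. Csrp2 and Csrp1, LIM protein genes of smooth muscle, changed by 0.51 (adjusted p = 7.3e-12) and 0.21 (adjusted p = 4.9e-07). Cald1, the caldesmon gene, changed by 0.15 (adjusted p = 5.0e-06). At 24h against 6h none of the 12 was called higher and 7 were called lower.

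Of 12 tested genes of SRF and its cofactors, 3 were called higher at 6h and 5 lower, with a median of -0.063; without 6h replicate 1, 3 were called lower. Srf itself averaged 114 ± 2.09 CPM at 6h and 131 ± 4.65 at 0h (log2 -0.20, adjusted p = 1.4e-05). Elk3, a partner of SRF that represses, changed by -0.12 (adjusted p = 6.5e-04), while Fhl1 rose to 593 ± 10.4 CPM at 6h, against 366 ± 6.40 at 0h, and Mical2, an oxidase that depolymerizes nuclear actin, rose by 0.20 (adjusted p = 4.0e-07). Myocd, the smooth muscle cofactor myocardin, was at 1.58 CPM at 6h and 1.67 at 0h (log2 -0.060, adjusted p = 0.838).

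Known SRF targets of the cytoskeleton and adhesion were called higher in 13 of 29 genes and lower in 4 at 6h, with a median of 0.052. Itgb1 averaged 2951 ± 21.7 CPM at 6h and 2112 ± 26.3 at 0h (log2 0.48, adjusted p = 4.6e-16). Itga5, which pairs with it as the fibronectin receptor, changed by 0.43 (adjusted p = 3.9e-13). Gsn, which encodes the filament-severing protein gelsolin, changed by -0.37 (adjusted p = 1.2e-12). At 24h against 6h, 5 of the 29 were called higher and 16 lower.

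Immediate early SRF targets were called higher in 7 of 12 genes and lower in 4 at 6h. Ccn2, the connective tissue growth factor gene, averaged 875 ± 10.8 CPM at 6h and 701 ± 28.1 at 0h (log2 0.32, adjusted p = 1.6e-10), while Ccn1, its close relative, averaged 388 ± 4.88 CPM at 6h and 468 ± 15.4 at 0h (log2 -0.27, adjusted p = 2.4e-09). Egr3 changed by 0.86 (adjusted p = 1.3e-06) and Fos averaged 2.41 ± 0.534 CPM at 6h and 4.78 ± 0.666 at 0h, a 0.499-fold level (adjusted p = 3.7e-06). These targets and the genes of SRF and its cofactors, 2 lists that both hold Srf, each had calls in both directions at 6h. At 24h against 0h, 5 of the 12 immediate early targets were called lower and none higher, where 2.87% of all tested genes were called lower. Of the 12 genes of SRF and its cofactors, 3 were lower and none higher. Leaving out 1 library at a time gave 2 to 5 immediate early targets lower. For SRF and its cofactors it gave 0 to 3 lower and 0 to 1 higher. Of the 29 cytoskeleton and adhesion targets, 4 were lower and 1 higher. Whether SRF has a part in these changes was not tested.

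Most markers of other cells were too low to test, and whether such cells have a part in the results above was not tested. Of 26 skeletal and cardiac muscle markers, 3 could be tested; their summed level was 10.2 to 11.6 CPM in the 6h libraries and 7.62 to 7.81 at 0h. Tnnt2, cardiac troponin T, took most of it, with 7.83 ± 0.775 CPM at 6h and 3.89 ± 0.374 at 0h (log2 1.01, adjusted p = 2.5e-08), while 9 of the 26 had no count at 6h, the defining factors Myod1 and Myog among them, which had none at 0h either. Of 12 mural and smooth muscle cell markers, summing to 226 to 232 CPM at 6h and 228 to 235 at 0h, none of the 5 tested was called higher and 1, Notch3, was called lower (log2 -0.41, adjusted p = 0.00686), which was lost without 0h replicate 3 (log2 -0.32, adjusted p = 0.0572). Most of the mural sum was Cspg4, with 158 CPM at 6h and 160 at 0h, and Mcam, with 60.9 CPM at 6h and 59.6 at 0h. At 24h Cspg4 stood at 140 CPM and was called lower than at 0h. Kcnj8, Abcc9, Higd1b and Pln had no count at any time, and Myh11, smooth muscle myosin, stood at 0.132 CPM at 6h and 0.186 at 0h.

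The 18 fibroblast markers summed to 15944 to 16156 CPM at 6h and 16001 to 16210 at 0h, with Col1a1 at 3024 CPM at 6h and 3199 at 0h. Dcn, decorin, was at 1.41 CPM at 6h and 1.82 at 0h, which is low for a dermal fibroblast marker. Of the 16 tested, 4 were called higher at 6h, among them Thy1 (log2 0.33, adjusted p = 5.6e-11), and 9 lower, among them Pdgfrb (log2 -0.47, adjusted p = 7.7e-13). Keratinocyte markers summed to 277 to 289 CPM at 6h and 233 to 240 at 0h, most of it Itga6, with 263 CPM at 6h and 211 at 0h; Krt5 had no count. Of the 4 tested, Itga6 (log2 0.32, adjusted p = 6.5e-11) and Epcam (log2 0.83, adjusted p = 3.5e-04) were called higher and Dsp, the desmoplakin gene, was called lower (log2 -0.58, adjusted p = 2.2e-08). Endothelial markers summed to 30.9 to 31.7 CPM at 6h and 24.5 to 27.1 at 0h, nearly all of it Flt1, with Pecam1 at 0.0625 CPM at 6h and 0.127 at 0h. Leukocyte markers summed to 6.79 to 7.67 CPM at 6h and 6.85 to 7.72 at 0h. Of the 4 tested, 1 was called higher: Mrc1, the macrophage mannose receptor gene, with 1.05 ± 0.239 CPM at 6h and 0.394 ± 0.0935 at 0h (log2 1.42, adjusted p = 2.1e-04).

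In chromatin, the 10 gene bodies were mostly outside the regions called for macroH2A2-GFP. With 1 library per condition there is no test, and the read depth behind a region is unknown. At 24h 9 of the 10 bodies held no region at all, as did 84.8% of genes of 10 CPM or more at 0h. A gene body was counted as covered when 50% or more of its bases lay inside regions. By that count 2 of the 10 were covered at 24h with flavopiridol (11.9% of all protein-coding genes), none at 6h with GSK126 (12.4%) and 1 at 24h with GSK126 (5.97%). Without inhibitor none was covered at 0h (3.37%), none at 6h (11.3%), 1 at 24h (8.78%) and none at 5 days (6.66%). Among genes of 10 CPM or more at 0h, to which 9 of the 10 belong, the shares covered were 6.84% with flavopiridol, 19.0% at 6h and 0.639% at 24h with GSK126, and 0.302%, 14.4%, 0.918% and 0.430% at 0h, 6h, 24h and 5 days. The gene outside this class is Acta1, with 4.77 CPM at 0h. It was the 1 gene covered at 24h with GSK126 and at 24h without inhibitor, so none of the 9 was covered there. With flavopiridol the covered genes were Acta1 and Myl9.

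**Figure D3:**
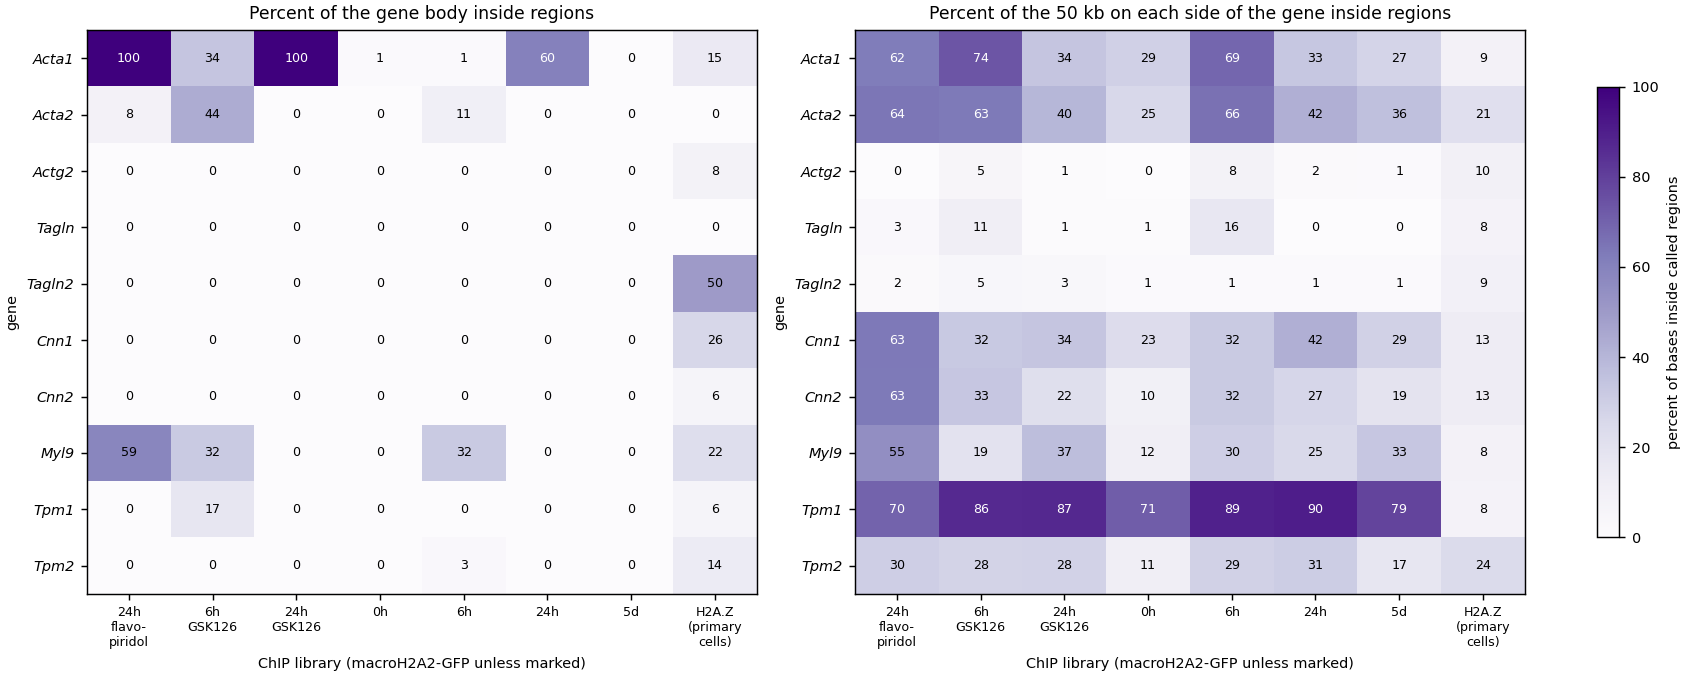
Percent of bases inside called regions, for the body of each gene (left) and for the 50 kb on each side of it (right), in 8 ChIP libraries (columns), with the value printed in each cell. Most cells on the left are 0, while the flanks of Acta1, Acta2 and Tpm1 hold 25% to 90% in all 7 macroH2A2-GFP libraries.

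Acta1 was the gene that regions covered most at 24h, with and without inhibitor. Its body was covered by 100% at 24h with flavopiridol, 33.7% at 6h with GSK126 and 100% at 24h with GSK126. Without inhibitor it was covered by 1.42% at 0h and at 6h, 60.2% at 24h and 0% at 5 days. The 24h region, chr8:123893001-123899000, spanned the start of the gene, and so did the longer regions with flavopiridol (chr8:123885201-123906800), with GSK126 at 24h (chr8:123885801-123898800) and with GSK126 at 6h (chr8:123893801-123907800). In a window of 1 kb on either side of the start, coverage was 100% with flavopiridol, 98.7% and 100% at 6h and 24h with GSK126, and 0%, 38.7%, 100% and 0% at 0h, 6h, 24h and 5 days. Acta1 was the only one of the 8 genes with a known start whose window was covered by 50% or more at 24h with flavopiridol (7.37% of all starts), at 24h with GSK126 (5.18%) and at 24h without inhibitor (7.65%). At 6h with GSK126 the windows of Acta1 and Acta2 were (7.03%), and none was at 0h (3.31%), 6h (7.33%) or 5 days (5.44%).

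The 24h regions over Acta1 with and without inhibitor carry the authors' score 1, below the median of their libraries. Using only regions at or above the median score, coverage of Acta1 was 0% at 24h with flavopiridol, 0% with GSK126 at 24h and 1.42% at 24h without inhibitor. At 5 days the deposited calls with a window of 1000 bases and a gap of 4000 covered 100% of Acta1, so its 0% there depends on the setting of the caller. The RNA of Acta1 at 24h was no higher than at 0h in any library, and RNA was not measured under the inhibitors.

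Acta2 was entered mainly at 6h. Its body was covered by 8.30% at 24h with flavopiridol, 43.6% at 6h with GSK126 and 0% at 24h with GSK126. Without inhibitor it was covered by 0%, 10.9%, 0% and 0% at 0h, 6h, 24h and 5 days. The 6h region without inhibitor reached 1665 bases into the gene's end and carries score 1. With regions at or above the median score Acta2 was at 0% in that library. With GSK126 at 6h a region (chr19:34250001-34259000) ran across the start, and the window around it was covered by 100%, against 28.6% at 6h without GSK126. At 24h with GSK126, and at 0h, 24h and 5 days without it, the nearest region stopped 216 to 416 bases upstream of the gene.

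Myl9 held a region inside its body at 6h with GSK126 (32.0%) and at 6h without it (32.0%, chr2:156777201-156779200), and a larger one at 24h with flavopiridol (chr2:156776401-156780000), where a second region also reached 57 bases into the gene's end and the body was covered by 58.5%. It was at 0% at 24h with GSK126 and at 0h, 24h and 5 days without inhibitor. Myl9 was the only one of the 10 to gain 50 points or more of coverage at 24h with flavopiridol against 24h without, as did 3.16% of all protein-coding genes. Over time without inhibitor, none of the 10 gained 50 points at 6h against 0h (7.53% of all genes), none lost 50 points at 24h against 6h (6.07%), and Acta1 alone gained 50 points at 24h against 6h (2.24%) and lost them at 5 days against 24h (1.38%). The 6h and flavopiridol regions also carry score 1, and with regions at or above the median score Myl9 was at 0% in both of those libraries.

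Tpm1 was entered with GSK126 at 6h (17.0%) and was at 0% in the other 6 macroH2A2-GFP libraries. With regions at or above the median score it was at 0.0406% at 6h with GSK126. Tpm2 had 2.79% at 6h without inhibitor and 0% in the other 6. Actg2, Tagln, Tagln2, Cnn1 and Cnn2 were at 0% in all 7. For 4 of these 5 the nearest region at 24h lay more than 10 kb away: 10426 bases for Tagln2, 19201 for Cnn2, 48309 for Actg2 and 50943 for Tagln. At 6h without inhibitor, when the RNA of Tagln was highest, regions lay nearer to 3 of them. The distance was then 1628 bases for Tagln, 1600 for Cnn2, 2150 for Actg2 and 10426 for Tagln2.

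Around the genes the picture at 24h was different for most of them. In the 50 kb on each side of Tpm1, regions took 69.9% of bases at 24h with flavopiridol, 86.4% and 86.9% at 6h and 24h with GSK126, and 71.5%, 89.3%, 90.5% and 78.9% at 0h, 6h, 24h and 5 days. At 24h the nearest region to Tpm1 ended 1529 bases from the gene. Cnn1, whose body held no region, had 42.2% of its flanks inside regions at 24h, with the nearest 421 bases away, and 23.4% at 0h. At 24h, 6 of the 10 genes had a body at 0% and flanks at 25% or more, as had 31.3% of genes of 10 CPM or more and 32.4% of those of 3 to 30 kb. At 5 days 5 of the 10 did, against 27.7% of genes of 10 CPM or more, at 6h 3, against 11.2%, and at 0h 2, against 14.7%. Tagln, Tagln2 and Actg2 had few called regions around them, with flanks at 0 to 16.0% in every macroH2A2-GFP library.

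**Figure D4:**
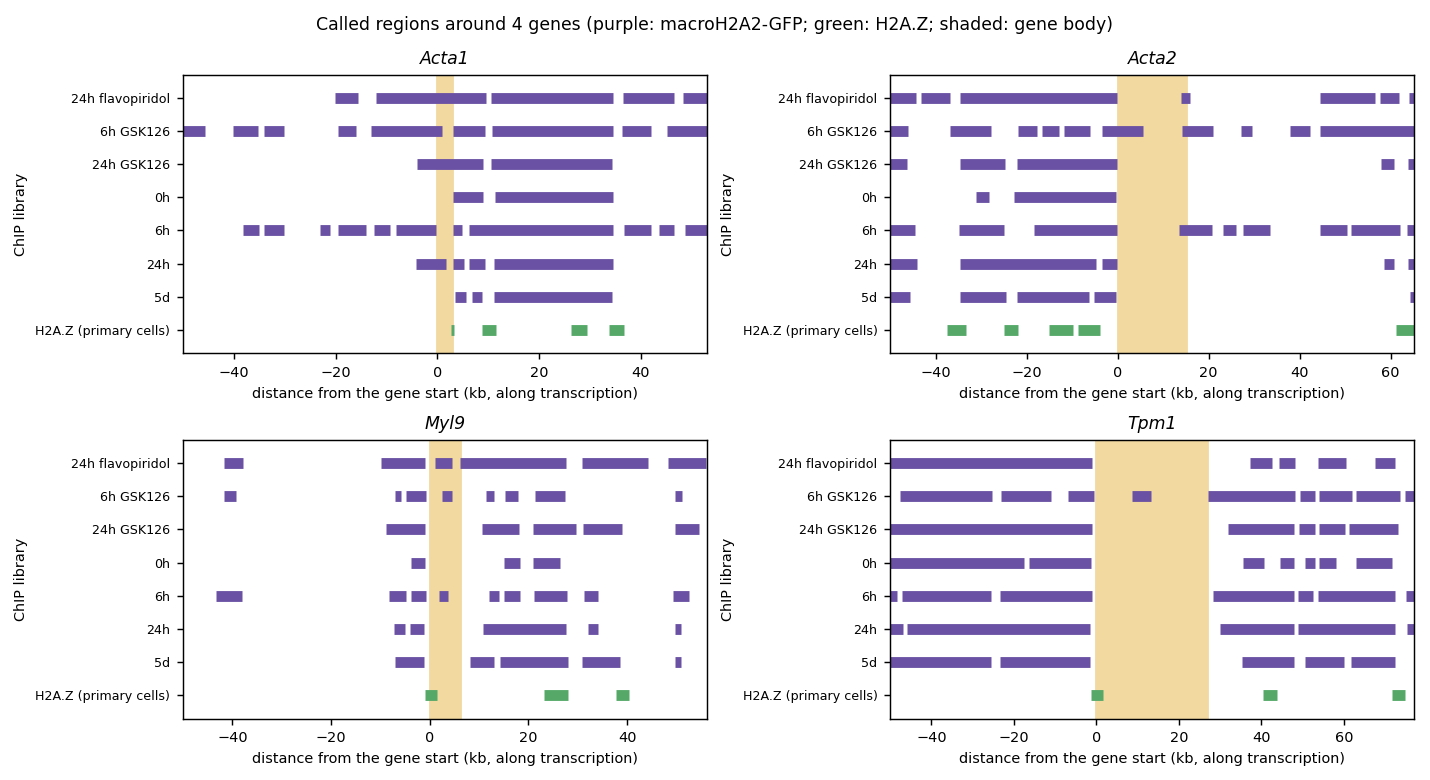
Regions called in 8 ChIP libraries (rows) around Acta1, Acta2, Myl9 and Tpm1, by distance from the gene start in kb along the direction of transcription (horizontal axes); purple bars are macroH2A2-GFP regions, green bars H2A.Z regions and the shaded band is the gene body. Upstream of Acta2 and Tpm1, regions stop within 2 kb of the start in most libraries, while those with flavopiridol and with GSK126 at 24h run across Acta1.

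With flavopiridol at 24h the flanks of several of the genes were fuller than at 24h without it. They held 63.0% with flavopiridol and 26.8% without at Cnn2, 63.4% and 42.2% at Cnn1, 62.2% and 33.0% at Acta1, 64.4% and 42.4% at Acta2, and 54.9% and 25.2% at Myl9. Tpm1 had less, 69.9% with flavopiridol and 90.5% without, and Tpm2 was at 29.9% with and 30.7% without. The median over the 10 genes was 58.6% with flavopiridol and 28.7% without, beside 23.7% and 19.1% for all genes of 10 CPM or more. The flavopiridol library had 43884 regions over 385 Mb and the 24h library 44827 over 363 Mb, and the part of such differences between libraries in the values above was not tested.

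H2A.Z in primary fibroblasts marked the starts of most of these genes. The window of 1 kb on either side of the start was covered by 100% at Cnn1, Myl9, Tpm1 and Tpm2, 92.3% at Tagln2 and 70.0% at Cnn2, and by 0% at Acta1 and Acta2. That makes 6 of the 8 genes with a known start, against 56.2% of all starts. Genes of 10 CPM or more had H2A.Z more often: a region lay within 2 kb of 95.9% of them, against 8 of the 10, and 5.00% of them had a body with none, as had 2 of the 10. Over whole bodies the H2A.Z share was highest at Tagln2, with 49.9% of its bases, and elsewhere ran from 0% at Acta2 and Tagln to 25.8% at Cnn1. None of the 10 was covered by 50% or more, against 4.75% of all protein-coding genes and 2.37% of those of 10 CPM or more. The strand of Actg2 and Tagln was not used; H2A.Z covered 100% of the window at the upper end of Actg2 and 0% at both ends of Tagln. The primary cells were wild-type and female, and RNA of these cells was not analysed here.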

How the data were processed

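Per the labels' protocols, directional poly(A) RNA was sequenced as single-end reads of 80 bases, and chromatin was digested with MNase before native ChIP. The submitters' processing notes name STAR 2.5.2b, Bowtie 1.1.2, SICER 1.1 and GRCm38. The RNA files as deposited hold counts of reads per gene, not normalized; the column of the sense strand was used, and 21.2 to 23.1% of reads were not assigned to a gene. The region lists deposited by the authors give each region a whole-number score, whose meaning is not given in the sources used here, and in another column a running number, used here to look for skipped regions: none was skipped where a gene of the 10 lies. Region calls had a window of 200 and a gap of 800.

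All 9 RNA libraries were fitted with edgeR 4.0.16 (filterByExpr, TMM, quasi-likelihood test, time as the only factor) in R 4.3.3, with Benjamini-Hochberg adjustment over 13785 genes. SE is the log2 change divided by the root of F. The test was checked on simulated counts. Alternatives were RLE scaling, DESeq2 1.42.0, no filter, unstranded counts, 6 libraries, a replicate block and leaving out each library. Replicate numbers did not pair the libraries (correlations of same-numbered libraries from -0.018 to 0.039). Coverage was computed with pandas 2.3.3 on RefSeq GRCm38.p6 genes, whose table has no strand. Starts came from its promoter table, and coordinates are 1-based. The starts of Acta2 (34255373) and Tpm1 (67049213) lie inside the annotated bodies. Distances in the figure of called regions run from the upstream edge of the body instead. Named genes were the 10, up to 4 genes of smallest p per list at 6h, list genes called in opposite directions, and the 3 nearest to Tagln and to Acta2; some of these are given only within counts. The members and lists were chosen with earlier results of these data known. The input library was not used here.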

Additional observations from a re-analysis of the deposited data

Results flagged for a closer look

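In all 10 genes the change at 24h differed from the change at 6h, by the edgeR test of 24h against 6h, which is the difference of the changes from the shared 0h libraries. The log2 difference was -1.65 for Acta1, -0.56 for Acta2, -0.66 for Actg2, -0.72 for Tagln, -0.39 for Tagln2, -0.56 for Cnn1, 0.12 for Cnn2, -0.36 for Myl9, -0.093 for Tpm1 and -0.22 for Tpm2. Each difference lay opposite in sign to the gene's change at 6h, and all 3 libraries of 24h stood on that side of all 3 of 6h in each gene. The share of all tested genes whose libraries part in this way was not counted. At the 24h against 6h comparison 36.1% of all tested genes were called, so the 10 stand beside many others.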

How the results depend on the processing

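The calls of all 10 genes at 6h against 0h and at 24h against 6h held under all 15 alternatives. At 24h against 0h, leaving out 1 library at a time gave 0 to 1 of the 10 called higher and 0 to 1 called lower: Tagln lost its call without 0h replicate 1 and Acta1 gained one without 0h replicate 2. The counts over all genes then were 352 to 658 higher, against 575 in the full fit, and 201 to 490 lower, against 396; they were lowest without 0h replicate 2, and for genes lower also without 24h replicate 2. Without 0h replicate 2 the log2 change had the other sign for Tagln2 (0.013; -0.030 to 0.013 over the libraries left out) and Cnn1 (0.014; -0.066 to 0.014). Genes of the other lists that changed sign at 6h were not called in any case: Tagln3 ranged from -0.18 to 0.27, Tnnc1 from -0.19 to 0.082, Myocd from -0.21 to 0.033, Csf1r from -0.36 to 0.068, Cspg4 from -0.041 to 0.0057 and Mcam from -0.0012 to 0.058. The replicate block changed no call of the 10, and called 2898 genes higher and 2537 lower at 6h against 0h, 603 and 424 at 24h against 0h, and 2428 and 2608 at 24h against 6h.

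The count of covered gene bodies moved with its definition. With 5 kb added on both sides, 1 gene was covered at 6h and 2 at 6h with GSK126, against 0 in each. At a threshold of 20%, 1 was covered at 6h, 3 at 6h with GSK126 and 3 for H2A.Z, and at 80% 1 was covered at 24h with flavopiridol and 0 at 24h without. Regions at or above the median score covered 0 genes at 24h with flavopiridol, at 24h with GSK126 and at 24h without. The wider calls at 5 days covered 1 gene, Acta1. With 2 kb on either side, 2 starts were covered with flavopiridol. Depth limits Acta1 most, with 116 to 437 reads per library. Regions carry no depth and no replicate, so no error can be given for coverage.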
